A study of Mus musculus with 6 samples.

Results

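The genes described here encode myeloid C-type lectins, a list of 10 receptors: Clec4d, Clec4e, Clec4n, Clec4a2, Clec4a3, Clec5a, Clec7a, Clec10a, Clec12a and Clec9a. Members were the probe sets that the platform annotation gives to 1 of these genes alone, which found 11 probe sets of 8 genes, out of 45037 probe sets and 18193 genes on the array. Clec12a and Clec9a had no such probe set, and their expression was not analysed here. RNA came from tracheal mesenchyme of adult male C57Bl/6 mice, as 3 samples at 48 h post injury (hpi) and 3 samples from normal controls. Injury was inhalation of 500 ppm SO2 in air for 4 h, a gas exposure that kills the luminal cells of the airway epithelium. Every sample pooled 4 mice, in both groups, and was the whole tissue left after 23 min in dispase and peeling of the epithelium, with no sorting and no depletion of leukocytes. Errors therefore measure the spread between pools and not between single mice. The list was chosen from differences between 48 hpi and control on these same 6 arrays, so the differences of its members are given as a description, with no p-value, and counts of their calls are no independent evidence.

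C-type lectin receptors sit on macrophages, monocytes, neutrophils and dendritic cells and bind sugars or lipids of microbes and material released by damaged cells. Several of them carry no signaling motif of their own and pair with an adaptor, the Fc receptor gamma chain or a DAP adaptor, which recruits the kinase Syk and then the relay proteins that switch on inflammatory genes. Others carry an inhibitory motif that recruits phosphatases and restrains this signal.

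Expression was measured on 6 arrays, 1 per sample, as robust multi-array analysis (RMA) values on the log2 scale, where a difference of 1 is a 2-fold change. Levels of different probe sets cannot be compared with each other on this scale. Arrays correlated at 0.987 to 0.994 within a group over all probe sets. All 10 measured markers of fibroblasts, smooth muscle and cartilage lay above 5.89 in both groups, a bound for dim probe sets set at the 90th percentile of genes of other tissues, such as eye and testis genes. Epithelial markers were present too, with 5 of 7 above that bound in both groups, and 0 of 7 passed the limma test between the groups. Their summed level, as log2 of the sum of linear values, was 10.49 to 12.70 at 48 hpi and 12.81 to 13.64 in controls. In the controls and in 48 hpi replicate 1 this sum was set mostly by the secretory cell gene Scgb1a1. In 48 hpi replicate 3 Scgb1a1 (8.72) was level with Krt8 (8.73). Scgb1a1 differed by -2.57 ± 0.82 (SE, adjusted p = 0.146, and 0.0146 with the replicate number as a block). The mean of the log2 values of the epithelial markers overlapped, at 7.0 to 8.1 at 48 hpi and 7.4 to 8.2 in controls. The part of these markers in the lectin values was not tested.

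Of the 8 measured lectins, 7 had all their 48 hpi values above all their control values, a pattern found in 17.2% of all genes. Over 2-fold higher were 6 members, beside 2.23% of all genes. The differences, always 48 hpi minus control on the log2 scale, ran from 0.34 for Clec10a to 3.73 for Clec4d, with a median of 2.12 over the 8 members and -0.01 over all genes. In the limma fit over all probe sets, at adjusted p 0.05, 7 of 8 members were called higher and 0 lower, beside 4.97% of all genes called higher and 1.24% called lower. By probe set, 8 of 11 were called higher, beside 3.49% of all probe sets, and 10 of 11 had groups that did not overlap with 48 hpi above, beside 13% of all. With the replicate number as a block, 7 of 8 members were called higher and 0 lower, beside 8.77% and 4.64% of all genes. These counts follow from how the list was chosen and support nothing about it. All 8 members were higher at 48 hpi in each of the 3 pairs of samples with the same replicate number. The share of all genes with this pattern was not counted. The 48 hpi mean lay above the dim bound for 7 members, but the control mean for only 2, Clec7a and Clec10a. For the other 6 the control level could not be told apart from that of genes of other tissues, so their differences and folds are those of the deposited values and their true size is not fixed by these arrays.

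**Figure D1:**
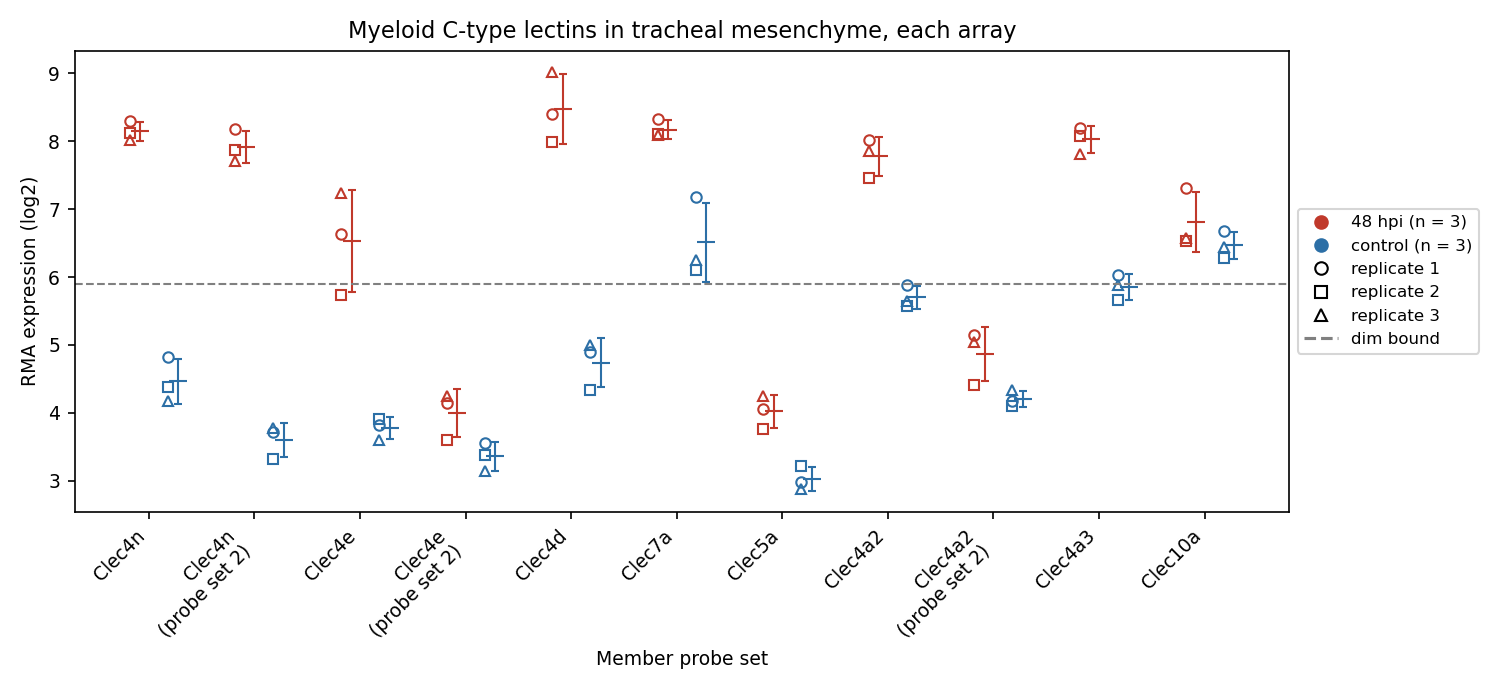
Level of the 11 member probe sets (horizontal axis), as log2 RMA values on the vertical axis, in 48 hpi and control mesenchyme, with 1 symbol per array, the mean ± SD of 3 arrays beside them and the dim bound of 5.89 as a dashed line. The groups do not overlap for any probe set but that of Clec10a, where 48 hpi replicates 2 and 3 lie at 6.54 and 6.58 and control replicate 1 at 6.68. For the dim second probe sets of Clec4e and Clec4a2 the gap is only 0.04 and 0.07.

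By the brightest probe set of each gene, the receptors that signal through the Fc receptor gamma chain had the largest differences of the members. With the mean of all probe sets of a gene Clec4e came to 1.70, under Clec4a3 at 2.17. Clec4n encodes Dectin-2, which binds mannans of fungi and mycobacteria. Its values were 8.30, 8.12 and 8.02 at 48 hpi (replicates 1, 2 and 3, here and below), against 4.83, 4.38 and 4.18 in controls. The lowest 48 hpi value lay 3.19 above the highest control. The means were 8.15 ± 0.14 at 48 hpi and 4.46 ± 0.33 in controls (SD, n = 3 each), a difference of 3.68 ± 0.17 (SE) or 12.8-fold. A second Clec4n probe set had 8.18, 7.87 and 7.71 at 48 hpi, against 3.72, 3.31 and 3.77 in controls. Its difference was 4.32 ± 0.17, and it correlated with the first at r = 0.993 over the 6 arrays, which share the group difference.

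Clec4d encodes MCL, a receptor for mycobacterial glycolipid that forms a complex with Mincle. It was at 8.40, 7.99 and 9.02 at 48 hpi, against 4.89, 4.33 and 5.00 in controls. The means were 8.47 ± 0.52 and 4.74 ± 0.36 (48 hpi and control, SD, n = 3 each), a difference of 3.73 ± 0.28 (SE) or 13.3-fold. As for Clec4n, the controls lay under the dim bound. Both 48 hpi and control groups had their highest value in replicate 3 and their lowest in replicate 2. Its probe set, like the brighter one of Clec4n, is of a kind that can match transcripts of related genes.

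Clec4e encodes Mincle, which binds mycobacterial cord factor and the spliceosome protein SAP130 released from dead cells. It varied most between injured samples, with 6.64, 5.74 and 7.23 at 48 hpi, against 3.82, 3.90 and 3.60 in controls. Injured replicate 2 was the lowest and replicate 3 the highest, and both were above every control. The means were 6.54 ± 0.75 at 48 hpi and 3.78 ± 0.16 in controls (SD, n = 3 each), a difference of 2.76 ± 0.34 (SE) or 6.77-fold. By same-numbered samples the difference was 2.81, 1.83 and 3.63. The second Clec4e probe set stayed under the dim bound, at 4.15, 3.60 and 4.25 at 48 hpi and 3.56, 3.38 and 3.14 in controls, and differed by 0.64 ± 0.19. Over the 6 arrays it correlated with the brighter one at r = 0.929. It ordered the 48 hpi arrays as the brighter probe set did, with replicate 3 highest and replicate 2 lowest.

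Clec7a and Clec5a activate cells by other routes. Clec7a encodes Dectin-1, a receptor for beta-glucans of fungi that recruits Syk through a motif in its own tail. It had 8.33, 8.10 and 8.09 at 48 hpi, against 7.18, 6.10 and 6.25 in controls. The injured samples lay close together, and control replicate 1 stood 0.67 above the mean of its group. The means were 8.17 ± 0.14 and 6.51 ± 0.58 (48 hpi and control, SD, n = 3 each), a difference of 1.66 ± 0.27 (SE) or 3.16-fold, and 1.15, 2.00 and 1.83 by same-numbered samples. Clec5a encodes MDL-1, a receptor that pairs with the DAP adaptors. Its values were 4.05, 3.76 and 4.25 at 48 hpi and 2.98, 3.22 and 2.88 in controls. It differed by 1.00 ± 0.15 (SE), with groups that did not overlap, although every array was under the dim bound.

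Clec4a2 encodes DCIR1, a receptor whose cytoplasmic tail carries an inhibitory motif. It was at 8.01, 7.46 and 7.86 at 48 hpi, against 5.89, 5.57 and 5.64 in controls. The means were 7.78 ± 0.29 and 5.70 ± 0.17 (48 hpi and control, SD, n = 3 each), a difference of 2.08 ± 0.16 (SE) or 4.21-fold. Its second probe set was dim, at 5.15, 4.41 and 5.05 at 48 hpi and 4.18, 4.11 and 4.34 in controls, and its difference was 0.66 ± 0.19. The lowest 48 hpi array of that probe set was only 0.07 above the highest control. A further probe set annotated to Clec4a2 together with Clec4b1 was left out. Clec4a3, a gene of the same DCIR family, had 8.19, 8.07 and 7.81 at 48 hpi, against 6.02, 5.65 and 5.89 in controls. Its difference of 2.17 ± 0.14 (SE) or 4.50-fold was close to that of Clec4a2, and its groups were 1.79 apart.

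Clec10a encodes MGL1, a galactose-binding lectin of macrophages and dendritic cells. Its values of 7.31, 6.54 and 6.58 at 48 hpi overlapped the 6.68, 6.28 and 6.44 of controls. The difference was 0.34 ± 0.22 (SE), and 0.63, 0.26 and 0.13 by same-numbered samples. Without 48 hpi replicate 1 it was 0.09. It was the 1 measured member with overlapping groups.

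Within the groups, the members did not all follow the same samples. Clec4n, Clec4a2, Clec4a3, Clec7a and Clec10a were highest in replicate 1 of both groups, 5 members in all. Clec4d, Clec4e and Clec5a were instead highest in 48 hpi replicate 3, and 0 members were highest in 48 hpi replicate 2. Clec4e and Clec5a had their highest control in replicate 2, so only Clec4d kept replicate 3 on top in both groups. Same-numbered samples deviated together over all probe sets as well, with correlations of 0.62, 0.36 and 0.34 for replicate numbers 1, 2 and 3 after removal of the group means.

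**Figure D2:**
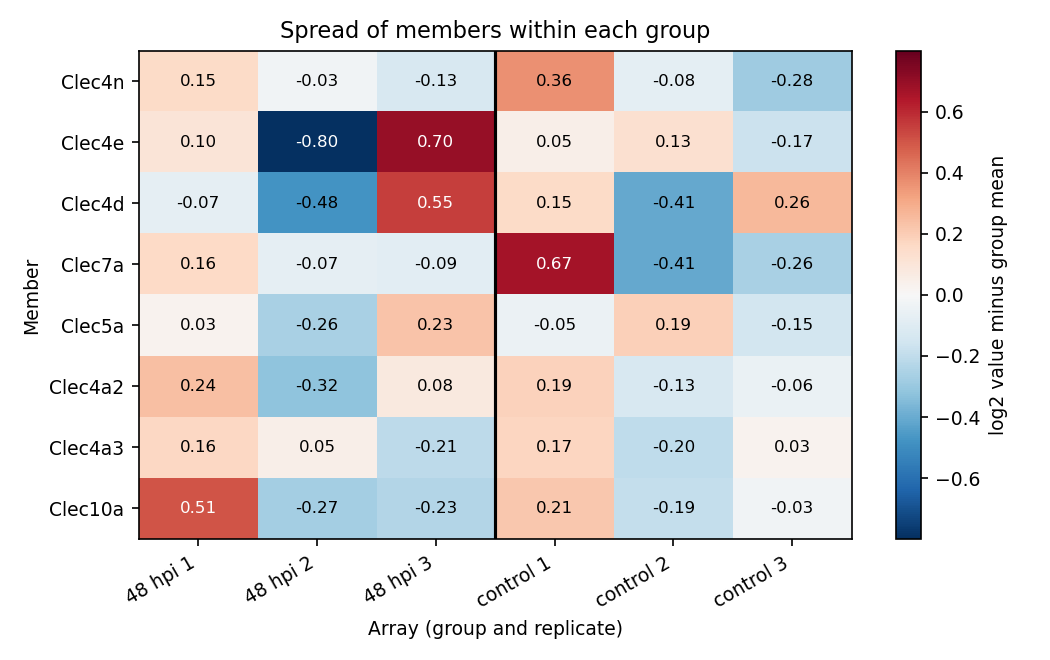
Log2 value minus the mean of its own group (color and printed number) for the 8 members (rows) in the 3 arrays at 48 hpi and the 3 control arrays (columns). The widest deviations are those of Clec4e at 48 hpi, from -0.80 in replicate 2 to 0.70 in replicate 3, and of Clec7a in control replicate 1, at 0.67.

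Most members lie on chromosome 6, in gene clusters whose order was taken from RefSeq. Clec4a3, Clec4a2, Clec4n, Clec4d and Clec4e stand in this order in the Dectin-2 cluster. Clec4b1, which lies between Clec4a3 and Clec4a2 and encodes the activating receptor DCAR, went the other way from its neighbours in every same-numbered pair. It had 4.67, 4.07 and 4.32 at 48 hpi, against 5.66, 4.79 and 5.21 in controls, all under the dim bound. Its difference of -0.86 ± 0.24 (SE) missed the threshold (adjusted p = 0.103) and passed with the replicate number as a block (adjusted p = 0.00331). Among the genes before the cluster, C3ar1, the receptor of the complement fragment C3a, rose by 2.80 ± 0.17 (adjusted p = 0.000530), while Necap1 (0.18), Foxj2 (-0.16) and Slc2a3 (0.11) did not pass. In the Dectin-1 cluster, Clec7a was flanked by lectin genes that did not pass, Clec1a (0.01), Clec1b (-0.23), Clec12b (-0.25) and Olr1 (0.06). Klrd1, an NK cell receptor gene farther along, rose by 1.11 ± 0.19 (adjusted p = 0.0230). These neighbours were taken by position, after the member values were known.

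**Figure D3:**
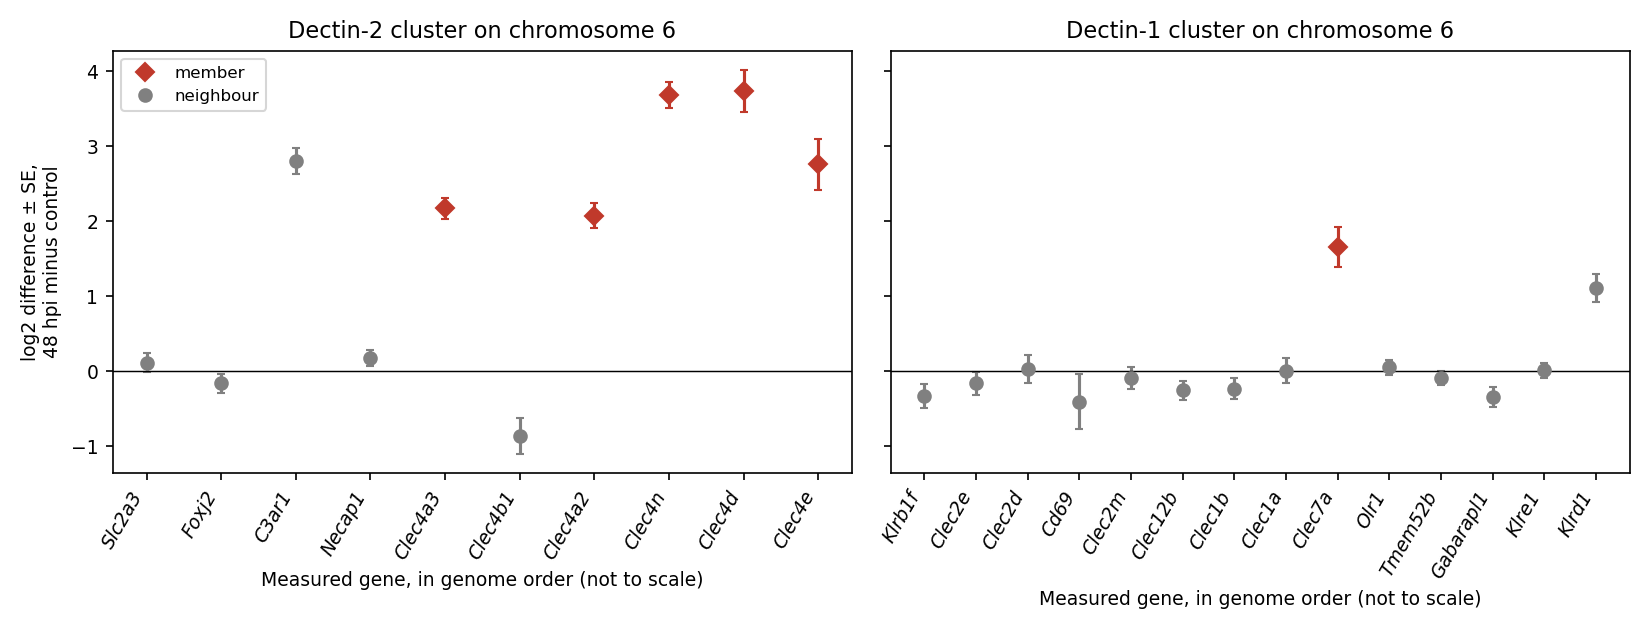
Log2 difference, 48 hpi minus control, with its SE (vertical axis) for the measured genes of the Dectin-2 and Dectin-1 clusters and up to 5 genes on each side, in genome order and not to scale (horizontal axis). Diamonds are members and circles neighbours, and the 5 members of the Dectin-2 cluster run from 2.08 to 3.73 with Clec4b1 among them at -0.86.

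Promoter sequence was searched for the listed genes. RefSeq windows of build GRCm38.p6 were found for 8 of the 10 genes, in 10 windows, among them Clec12a and Clec9a, whose expression was not measured, and not for Clec4n and Clec10a, and the 250 bases before the start site were searched on both strands. GAGGAA, the core that the myeloid factor PU.1 binds, was in 7 of 10 member windows, in 6 genes (Clec4a3, Clec4d, Clec4e, Clec5a, Clec7a and Clec12a), and in 23.3% of all 32851 windows. The Clec7a windows overlap and hold the same match, which the count by window takes more than once. TTGCNNAA, a C/EBP pattern, was in the windows of Clec4e and Clec12a and in 9.56% of all windows. TGANTCA, an AP-1 pattern, was in that of Clec12a and in 6.75% of all. An NF-kappaB pattern was in 0 member windows and in 0.356% of all, and the core of the interferon-stimulated response element in 0 and in 2.98%. Windows of the measured members with GAGGAA are shown 5′ to 3′ on the gene's strand, with GAGGAA or its complement TTCCTC in capitals, and in Clec4e also the C/EBP pattern, which does not overlap them. The shown ones lie at chr6:123289872-123290121 (Clec4e, minus strand), chr6:123261857-123262106 (Clec4d, plus), chr6:129472780-129473029 (Clec7a, minus), chr6:40585806-40586055 (Clec5a, minus) and chr6:122952394-122952643 (Clec4a3, plus).
Clec4e: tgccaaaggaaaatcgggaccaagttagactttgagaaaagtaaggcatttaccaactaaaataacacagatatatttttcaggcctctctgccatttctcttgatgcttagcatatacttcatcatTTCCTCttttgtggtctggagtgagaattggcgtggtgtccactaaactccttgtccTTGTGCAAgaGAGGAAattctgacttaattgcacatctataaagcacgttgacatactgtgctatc
Clec4d: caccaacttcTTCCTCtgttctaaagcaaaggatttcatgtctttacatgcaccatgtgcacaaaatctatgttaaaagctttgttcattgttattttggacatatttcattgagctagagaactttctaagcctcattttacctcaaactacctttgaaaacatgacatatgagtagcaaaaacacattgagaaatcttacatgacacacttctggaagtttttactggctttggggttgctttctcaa
Clec7a: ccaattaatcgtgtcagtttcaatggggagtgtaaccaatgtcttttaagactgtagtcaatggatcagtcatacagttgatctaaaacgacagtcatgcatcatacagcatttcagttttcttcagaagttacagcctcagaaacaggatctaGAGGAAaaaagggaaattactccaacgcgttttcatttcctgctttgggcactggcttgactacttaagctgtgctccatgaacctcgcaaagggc
Clec5a: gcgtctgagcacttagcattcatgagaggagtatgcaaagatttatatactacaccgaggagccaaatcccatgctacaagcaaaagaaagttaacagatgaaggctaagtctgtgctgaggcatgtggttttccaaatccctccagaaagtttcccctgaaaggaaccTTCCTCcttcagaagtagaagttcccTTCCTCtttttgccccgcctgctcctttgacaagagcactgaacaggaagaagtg
Clec4a3: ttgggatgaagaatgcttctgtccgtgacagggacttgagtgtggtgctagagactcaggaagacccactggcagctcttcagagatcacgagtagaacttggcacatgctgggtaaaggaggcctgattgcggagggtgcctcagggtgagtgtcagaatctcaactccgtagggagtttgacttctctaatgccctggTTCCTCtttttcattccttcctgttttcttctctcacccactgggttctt
The pattern began 56 bases before the start site in Clec4e (and once more farther upstream), 55 and 81 in Clec5a, 50 in Clec4a3 and 96 in Clec7a, but 240 in Clec4d. A match is only a match of letters, and no binding was measured.

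Partners of these receptors, a list of adaptors, kinases, relay proteins and phosphatases, were tested in the same limma fit. Of 16 measured partners 8 rose and 0 fell, beside the 4.97% and 1.24% of all genes. The 48 hpi mean lay above the dim bound for 14 of the 16 and the control mean for 10. Of 3 adaptors 2 rose. Fcer1g, the Fc receptor gamma chain that Clec4n, Clec4d and Clec4e use, had 10.49, 9.98 and 10.45 at 48 hpi, against 9.02, 8.42 and 8.76 in controls. It rose by 1.57 ± 0.19 (SE, adjusted p = 0.00723). Tyrobp, the DAP adaptor of Clec5a, had 11.03, 10.78 and 11.16 at 48 hpi, against 9.43, 8.86 and 9.37 in controls, and rose by 1.77 ± 0.18 (adjusted p = 0.00312). Hcst, the other DAP adaptor, differed by 0.78 ± 0.25 (adjusted p = 0.147 without and 0.00688 with the replicate number as a block).

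All 4 measured kinases rose. Of these, only Prkcd had a control mean above the dim bound, and Btk had both means under it. The true size of the rises of Syk, Fgr and Btk is therefore not fixed by these arrays. Syk, the kinase on which the activating receptors converge, had 6.78, 6.55 and 7.05 at 48 hpi, against 5.70, 5.36 and 5.80 in controls, a rise of 1.17 ± 0.16 (adjusted p = 0.0120). The Src family kinase Fgr rose by 1.18 ± 0.14, Btk by 0.75 ± 0.12 and Prkcd, which activates the relay proteins downstream of Syk, by 0.59 ± 0.11. Calls of Fcer1g, Tyrobp, Syk and Fgr held in all 6 fits that left out 1 sample, that of Btk in 3 (lost without 48 hpi replicates 1 or 3 or control replicate 3) and that of Prkcd in 1, the one without control replicate 1.

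Among the relay proteins, 1 of 6 measured rose. Lcp2, a scaffold that Syk phosphorylates, rose by 1.13 ± 0.11 (adjusted p = 0.00280, past the threshold in all 6 leave-one-out fits). Its control mean of 5.25 lay under the dim bound. Bcl10 (0.35) and Malt1 (0.02), which carry the signal to NF-kappaB, did not pass. Neither did Vav1 (-0.13), which was under the dim bound on every array. Plcg2 (0.44, adjusted p = 0.0986) and Vav3 (-0.38, adjusted p = 0.438) passed only with the replicate block, at adjusted p = 0.0274 and 0.0426. Of 3 phosphatases, Inpp5d, a lipid phosphatase that counters Syk signaling, rose by 0.69 ± 0.15 (adjusted p = 0.0476), a call lost in every leave-one-out fit, with adjusted p from 0.0605 to 0.135. Ptpn6 (0.27) and Ptpn11 (-0.01), which bind inhibitory motifs, did not pass.

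**Figure D4:**
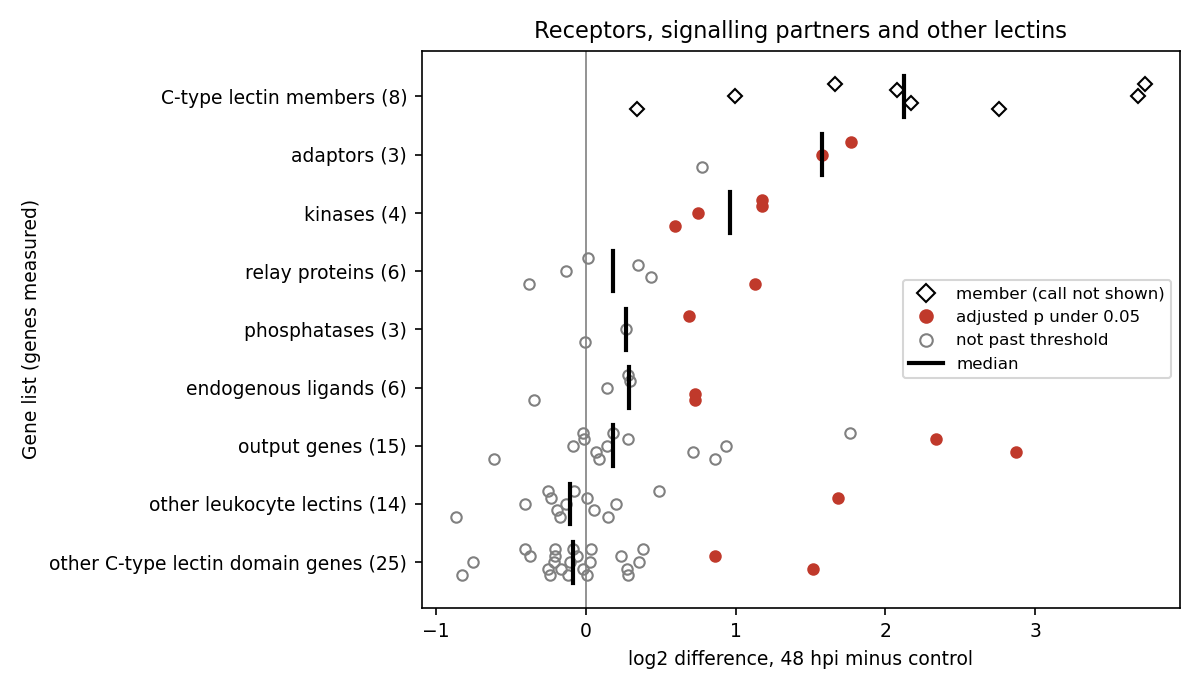
Log2 difference, 48 hpi minus control (horizontal axis), of the lectin members, their partners and other lectins by list (vertical axis, with the number measured), 1 point per gene and a bar at the median. Diamonds are members, which were chosen on this contrast and are drawn without their calls, and of the other genes filled points passed adjusted p 0.05 and open points did not. Medians run from 2.12 for the members to -0.10 for the other leukocyte lectins.

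Of 6 measured genes listed for reported ligands made by the body's own cells, 2 rose and 0 fell, beside 4.97% and 1.24% of all genes. Lgals9, a galectin reported to bind Dectin-1, rose by 0.73 ± 0.08 (adjusted p = 0.00541). Vim, an intermediate filament protein also reported to bind it, rose by 0.73 ± 0.11 (adjusted p = 0.0160), a call that held in 3 of 6 leave-one-out fits, and was lost without 48 hpi replicates 2 or 3 or control replicate 3. The listed gene with the symbol Sap130 encodes a Sin3A-associated protein and not the spliceosome protein that Mincle binds, so it was listed wrongly. It had 7.32, 7.02 and 7.30 at 48 hpi and 7.27, 7.02 and 6.93 in controls, which overlapped. The gene of the Mincle ligand itself was not on the list.

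Of 15 genes that these receptors are known to induce in myeloid cells, 2 rose and 0 fell, beside 4.97% and 1.24% of all genes. Il1b, an inflammatory cytokine, had 9.37, 9.22 and 9.31 at 48 hpi, against 7.51, 6.60 and 6.77 in controls, a rise of 2.34 ± 0.22 (adjusted p = 0.00268). Cxcl2, a neutrophil chemokine, had 10.60, 10.33 and 10.69 at 48 hpi, against 8.80, 7.34 and 6.88 in controls, a rise of 2.87 ± 0.45 (adjusted p = 0.0177). The call of Cxcl2 was lost without 48 hpi replicate 1, 48 hpi replicate 3 or control replicate 2, with adjusted p up to 0.0872. The median of the 15 genes was 0.18. With the replicate number as a block 3 were higher and 0 lower, beside 8.77% and 4.64% of all genes. The added gene was Nlrp3 (0.94, adjusted p = 0.109 without and 0.0229 with the block).

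Of 39 measured C-type lectins outside the list, 3 rose and 0 fell, beside 4.97% and 1.24% of all genes, and their median was -0.08. With the replicate number as a block 4 were higher and 3 lower (Clec4b1, Clec3b and Sftpd), beside 8.77% and 4.64% of all genes. Calls this few are close to the shares of all genes. Mrc1, the mannose receptor of macrophages, had 9.81, 9.34 and 9.84 at 48 hpi, against 8.10, 7.96 and 7.86 in controls, a rise of 1.69 ± 0.15 (adjusted p = 0.00205). Cd93, a lectin-domain protein of endothelium and myeloid cells, rose by 0.87 ± 0.10 (adjusted p = 0.00511). Selp, which encodes the P-selectin of endothelium and platelets, rose by 1.52 ± 0.28 (adjusted p = 0.0306), but passed in only 1 of 6 leave-one-out fits, the one without control replicate 1.

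Markers of other cell types were tested in the same fit, which called 4.97% of all genes higher and 1.24% lower. Of 12 measured monocyte and macrophage markers 8 rose and 0 fell, led by Itgam (2.88), Msr1 (2.45, lost without control replicate 2) and Cd68 (2.28). Itgam is expressed by neutrophils too. The control means of Itgam (3.95), Msr1 (5.80) and Fcgr1 (5.67) lay under the dim bound, so the true size of their rises is not fixed. Lyz2 (-0.43), Mertk (-0.45), Cx3cr1 (0.01) and Cd163 (1.03) did not pass in this fit. The summed level of the 12 markers, on the log2 scale, was 13.32 to 13.89 at 48 hpi and 13.45 to 13.65 in controls, a sum whose largest part was the abundant Lyz2. The mean of their log2 values was 8.54 to 8.83 at 48 hpi and 7.35 to 7.61 in controls. Of 11 neutrophil markers 3 rose, S100a8 (4.27), S100a9 (4.13) and Csf3r (1.12), with summed levels of 13.20 to 13.80 at 48 hpi and 13.52 to 13.87 in controls, set mostly by Ltf. The mean of their log2 values was 6.56 to 6.98 at 48 hpi and 5.60 to 6.09 in controls, without overlap. S100a8 and S100a9 had by far the largest differences in this mean, and the median difference of the 11 markers was only 0.24. Ltf had a mean of 13.66 in controls. The markers Camp, Ngp, Mpo, Elane, Cxcr2 and Mmp8 had means under the dim bound in both groups. Neither Ltf (-0.75) nor Ngp (-0.26) passed, although all their 48 hpi values lay below all their control values. Of the 11 markers 4 had all 48 hpi values above all control values, beside 17.2% of all genes. Which cells gave the Ltf signal, and so the sum, was not tested. S100a8 passed in 2 and S100a9 in 3 of the 6 leave-one-out fits, both lost without 48 hpi replicates 1 or 3 or control replicate 3, and S100a8 also without 48 hpi replicate 2. Of 12 dendritic cell markers 0 rose and 1 fell, Cadm1 (-0.93, lost without control replicates 2 or 3), which other cells express too, and their summed level was 11.14 to 11.93 at 48 hpi and 11.66 to 12.08 in controls. Xcr1, a defining marker of the dendritic cells that carry Clec9a, was under the dim bound on every array. In each group 7 of the 12 dendritic cell markers had a mean above that bound, among them Batf3, Irf8 and Cadm1. Lymphoid markers (0 of 5) and mast cell markers (0 of 6) did not pass. In each group 0 of the 5 lymphoid markers had a mean above the dim bound, so their result does not tell of lymphoid cells. With the replicate number as a block, 9 macrophage markers were higher and 1 lower, and 4 neutrophil markers were higher. In that fit 2 dendritic cell markers were higher (Itgax and Ccr7) and 1 lower, and 2 mast cell markers were higher (Cpa3 and Mcpt4). Over all genes the blocked fit called 8.77% higher and 4.64% lower. In such bulk samples more or fewer cells of a type and more or less RNA per cell cannot be told apart. The part of these markers in the lectin values was not tested.

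By likeness of profile, each lectin was set beside 10532 genes with a mean above the dim bound, as the root mean square difference of the log2 values over the 6 arrays, each profile centred on its own mean. Nearest to Clec4a2 were Fcgr3, an activating Fc receptor gene (0.08), the interleukin 1 decoy receptor gene Il1r2 (0.08) and Spc24 (0.12). Nearest to Clec4d were Ms4a6d (0.22), the chemokine gene Ccl6 (0.23) and the cyclin gene Ccnb2 (0.26). For Clec4e they were Ptx3 (0.20), AA467197 (0.20) and Ccl9 (0.22), and for Clec7a they were Selp (0.12), Aif1 (0.18) and Ccn5 (0.21). Nearest to Clec4n were the mitotic genes Ube2c (0.30) and Cdk1 (0.32), and no gene came nearer to it. These profiles share the same 6 arrays, and the difference between the groups makes up most of each.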

How the data were processed

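RNA of 6 tracheal mesenchyme samples was amplified, labelled with biotin and hybridized by the authors to Affymetrix whole-genome mouse arrays. The deposited values are log2 RMA expression values, 1 per probe set and array, which RMA made by background correction, quantile normalization and summary over probes. Partek 6.5 and Affymetrix Expression Console 1.1 are listed in the submitters' processing notes. RMA hides a change shared by most genes. For arrays, their number limits the precision.

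Of 45101 probe sets, 64 controls were left out. The platform annotation named 1 gene for 34945 probe sets, more than 1 for 932 and no gene for 9160. Of these, 34741 were renamed through Entrez identifiers with a RefSeq table of GRCm38.p6, used for names and gene order. A gene took its probe set with the highest mean. The test was limma 3.58.1 in R 4.3.3 (lmFit, eBayes, two-sided, no covariate), with Benjamini-Hochberg adjustment over 45037 probe sets, and was tested on simulated data. No filter on low values was used. The study's own model also held epithelium, which is not analysed here.

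Same-numbered samples deviated together (all 3 correlations over 0.1 and each best with its own number), so a blocked fit by replicate number was run. The labels state no shared day or batch behind these numbers, and the pairing rests on the correlations. The members, lists and rules were chosen with earlier results of these data known. All members and signaling partners could be named, and of each other list the genes past the threshold with the largest change, at most 3 per direction. Other genes named are neighbours by position or by likeness of profile, and some markers. Alternatives were leaving out samples, the block, a filter on dim probe sets, the mean of all probe sets of a gene, other scaling and other variance models.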

Additional observations from a re-analysis of the deposited data

How the results depend on the processing

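All 8 members kept a positive difference under all 16 alternatives (15 for Clec5a, which the filter on dim probe sets removed). The values moved by more than the spread between samples only with the mean of all probe sets of a gene, which gave 1.70 for Clec4e and 1.37 for Clec4a2. The difference of Clec10a, 0.34 with all samples, came to 0.09 without 48 hpi replicate 1. Members called higher numbered 7 with the replicate block, the same 7 as without it, and 5 to 7 when 1 sample was left out. The members lost then were Clec7a (without any 48 hpi sample or control replicates 2 or 3) and Clec5a (without 48 hpi replicates 1 or 3 or control replicate 3). Signaling partners numbered 8, against 5 to 7 with 1 sample left out, output genes 2, against 1 to 2, other lectins 3, against 2 to 3, and all genes 1130, against 366 to 722. Without both samples numbered 1, 4 partners and 489 genes passed, without both numbered 2, 4 partners, 0 output genes, 1 other lectin and 249 genes, and without both numbered 3, 3 members (Clec4d, Clec4n and Clec4a3), 0 partners, 0 output genes, 0 other lectins and 134 genes, with 4 samples left in each fit. With the replicate block 2441 genes passed (1596 higher, or 8.77%, and 845 lower, or 4.64%). An ordinary linear model with no shared variance called 1 member (Clec4n), 0 partners, 0 output genes, 0 other lectins and 45 genes after adjustment, and 7 members at an unadjusted p under 0.05. The cause of these shifts was not tested, apart from the fewer samples in the fits that leave some out.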
